A study of Mus musculus with 2 samples.

Results

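The genes described here mark the glutamatergic neurons of the lower cortical layers, and were read in total RNA of left cerebral cortex. The mice were females of B6CASTF1/J, the hybrid of the C57BL/6J and CAST/EiJ strains, at an age of 18 to 20 months. They are 10 named genes (Fezf2, Bcl11b, Tbr1, Etv1, Foxp2, Tle4, Syt6, Hs3st4, Ccn2 and Nxph4) of the 55536 annotated genes, found by gene name in the transcript tables and joined by identifier to the gene tables. All 10 were found. The series holds 1 group of 2 libraries, made from 300 ng of RNA each with spike-in RNAs added, and no treatment or contrast. Both biosamples share 1 donor entry in the labels, so it is not clear that they came from separate animals, and the spread between them may be technical. The depth on genes was 32357983 expected read counts in replicate 1 and 24798683 in replicate 2.

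Projection neurons of the cortex are laid down from the deepest layer outward, and those of layers 5 and 6 send the axons that leave the cortex. Layer 5 neurons that reach the brainstem and spinal cord depend on Fezf2, a zinc finger repressor that acts upstream of Bcl11b (Ctip2). Layer 6 neurons that reach the thalamus depend on Tbr1, which represses Fezf2 and Bcl11b in them, and they keep Foxp2 and Tle4 into adult life. Ccn2 and Nxph4 mark layer 6b, the thin sheet above the white matter that is left from the subplate. In tissue RNA, fewer cells of a type and less RNA per cell cannot be told apart.

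Alternative exons and a codon repeat distinguish the transcripts on which several of the results turn, and their sequences are given first. They come from the GENCODE M21 transcripts on the mm10 build, which is the sequence of the C57BL/6J parent. In Bcl11b, the transcripts Bcl11b-201 and Bcl11b-203 differ in a coding exon of 216 bases or 72 codons (exon 3 of 4, chr12:107965672-107965887, minus strand). In Etv1, the transcripts Etv1-201 and Etv1-203 differ in a coding exon of 69 bases or 23 codons (exon 9 of 13, chr12:38852220-38852288, plus strand). In both genes the other transcript joins the flanking exons directly, and both exons keep the reading frame. Capitals mark the exon and lower case the 15 bases on either side in the spliced transcript.
Bcl11b-201: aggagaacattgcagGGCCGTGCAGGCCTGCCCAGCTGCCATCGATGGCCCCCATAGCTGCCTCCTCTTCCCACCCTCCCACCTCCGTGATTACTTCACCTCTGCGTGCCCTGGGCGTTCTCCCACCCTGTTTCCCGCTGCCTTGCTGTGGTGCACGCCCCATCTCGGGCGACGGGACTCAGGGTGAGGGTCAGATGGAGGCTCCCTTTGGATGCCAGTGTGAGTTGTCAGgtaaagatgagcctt
Etv1-201: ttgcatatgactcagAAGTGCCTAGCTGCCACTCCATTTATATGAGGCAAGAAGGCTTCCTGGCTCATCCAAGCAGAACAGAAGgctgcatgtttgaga

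In Tle4, the transcripts Tle4-201 and Tle4-202 have the same length and the same 20 exons except for exon 8, a microexon of 17 bases. It lies at chr19:14516359-14516375 in Tle4-201 and at chr19:14491783-14491799 in Tle4-202, both on the minus strand. The pair is shown because a choice of 17 bases alone separates the form with reads from the form without any. Capitals mark the microexon.
Tle4-201: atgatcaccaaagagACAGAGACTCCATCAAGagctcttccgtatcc
Tle4-202: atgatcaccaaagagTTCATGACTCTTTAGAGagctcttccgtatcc

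The Foxp2 coding sequence holds a run of 40 glutamine codons (codons 152 to 191 of 714), 29 of them CAG and 11 CAA, at chr6:15377945-15378064 on the plus strand. Both leading Foxp2 transcripts contain it. Its relative Foxp1 has a run of 37 codons, 29 CAG and 8 CAA, at chr6:99075905-99076015 on the minus strand, while the longest run in Foxp4 has 4 codons. The runs of both genes are shown because the paralogues share this repeat while their levels differ widely. Capitals mark the CAA codons.
Foxp2-201: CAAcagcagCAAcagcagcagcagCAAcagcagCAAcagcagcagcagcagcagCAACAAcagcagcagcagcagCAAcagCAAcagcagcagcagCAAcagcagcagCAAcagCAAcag
Foxp1-204: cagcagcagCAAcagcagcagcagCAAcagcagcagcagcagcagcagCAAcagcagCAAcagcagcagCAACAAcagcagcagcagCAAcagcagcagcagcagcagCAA

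All 10 genes were detected at 1 TPM (a level from counts that corrects for both the length of a gene's transcripts and the depth of the library) or more in both libraries, against 12844 of the 22015 nuclear protein-coding genes (58.3%). Their gene-table TPM spanned 16.7-fold, with Tbr1 highest and Nxph4 lowest, and their median was 14.3 TPM in replicate 1 and 14.1 TPM in replicate 2. Nuclear protein-coding genes at 1 TPM had medians of 15.5 and 16.0 TPM, so the 10 genes lay near the middle of the expressed genes. Levels below are gene-table TPM, given as mean ± SD (n = 2) after the value of each library.

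Fezf2, the selector of subcerebral layer 5 neurons, had 11.3 TPM in replicate 1 and 12.4 in replicate 2 (11.8 ± 0.813 TPM, from 542 and 444 counts). Bcl11b, a zinc finger factor needed for the corticospinal axons of layer 5, stood at 25.8 and 26.9 TPM (26.4 ± 0.813 TPM, from 3344 and 2554 counts). Etv1 (Er81), an ETS factor of layer 5 neurons that project within and below the cortex, stood at 26.3 and 24.2 TPM (25.3 ± 1.46 TPM). Bcl11b and Etv1 changed places between the libraries and did not differ beyond their spread. Etv1 was the only one of the 10 genes with fractional counts (2385.1 and 1784.4), meaning that some of its reads also matched another gene.

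Tbr1, the T-box factor that specifies corticothalamic neurons, stood at 52.0 and 49.9 TPM (50.9 ± 1.47 TPM, from 4439 and 3069 counts). It was the highest of the 10 genes in both libraries, 1.93 times the next, and lay at percentiles 90.9 and 90.1 of the nuclear protein-coding genes. Tle4, a Groucho-type corepressor that is kept in adult corticothalamic neurons, stood at 15.6 and 15.3 TPM (15.5 ± 0.163 TPM, from 1538 and 1117 counts). Foxp2, a forkhead repressor of the same neurons, stood at 4.23 and 4.41 TPM (4.32 ± 0.127 TPM, from 475 and 326 counts). Of these layer 6 factors Tbr1 was thus the highest and Foxp2 the lowest in both libraries.

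Hs3st4 and Syt6, effector genes of layer 6, both lay below Tbr1. Hs3st4, a sulfotransferase that places the last sulfate on heparan sulfate chains, stood at 18.1 and 18.9 TPM (18.5 ± 0.587 TPM, from 1262 and 987 counts). Syt6, a synaptotagmin, one of a family of vesicle membrane proteins, stood at 6.68 and 6.02 TPM (6.35 ± 0.467 TPM, from 469 and 321 counts). Of the layer 6b genes, Ccn2 (Ctgf), a secreted matrix protein, stood at 13.1 and 12.9 TPM (13.0 ± 0.148 TPM, from 656 and 500 counts). Nxph4, a secreted neurexophilin that binds neurexins, stood at 3.24 and 2.86 TPM (3.05 ± 0.269 TPM, from 115 and 76 counts). The layer 6b markers Ccn2 and Nxph4 therefore differed in level by more than their spread between the libraries.

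Ordered by level, the genes ran Tbr1, Bcl11b, Etv1, Hs3st4, Tle4, Ccn2, Fezf2, Syt6, Foxp2 and Nxph4. The libraries' values overlapped between neighbours for Bcl11b and Etv1 alone. Every other neighbouring pair was separated in both libraries, by as little as 1.10-fold between Ccn2 and Fezf2. With 2 values per gene, this separation is a description of these libraries.

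**Figure D1:**
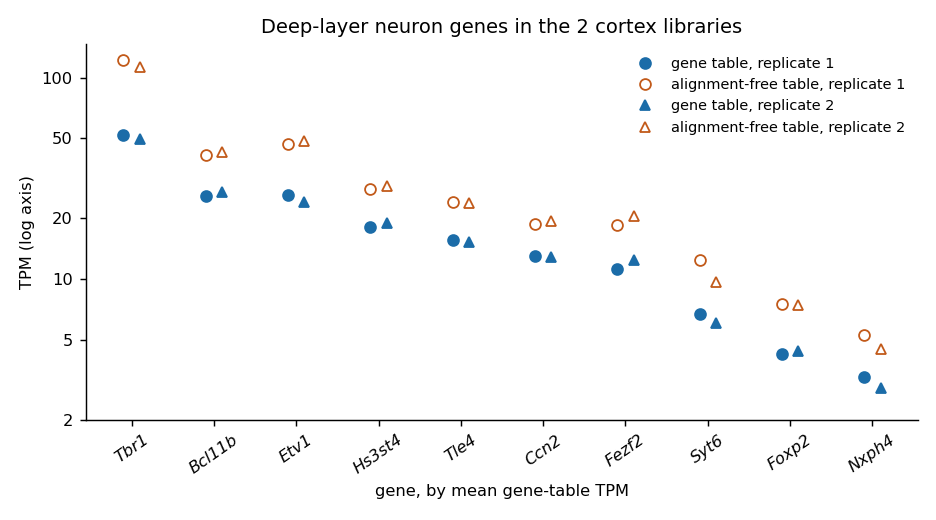
TPM of each gene (log axis) in replicate 1 (circles) and replicate 2 (triangles), from the gene table (filled) and the alignment-free table (open). Tbr1 is highest and Nxph4 lowest in both tables, and the libraries lie close together for every gene, while the alignment-free values are higher throughout.

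Quantification straight from the reads, in the tables called alignment-free here, gave each of the 10 genes a higher TPM than the gene table. The median of this ratio over 15548 genes was 1.59 in replicate 1 and 1.62 in replicate 2. For all but Tbr1 it was between 1.44 (Ccn2 in replicate 1, percentile 21.8 of those genes) and 2.01 (Etv1 in replicate 2, percentile 83.7). For Tbr1 it was 2.35 and 2.28, at percentiles 93.8 and 91.5 of those genes, where it had 122 and 114 TPM by the alignment-free method. The counts of Tbr1 differed much less, by ratios of 1.10 and 1.11. The order of the genes was otherwise kept except for 2 neighbouring swaps: Etv1 (47.8 ± 1.42 TPM) came before Bcl11b (42.2 ± 1.09 TPM), and Fezf2 (19.5 ± 1.35 TPM) before Ccn2 (19.2 ± 0.486 TPM).

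Foxp2 was the only gene of the 10 for which the deposited posterior mean TPM departed from TPM by more than a few percent. Its posterior mean was 5.98 TPM in replicate 1 and 6.86 TPM in replicate 2, or 1.41 and 1.56 times the TPM. For the other 9 genes the same ratio lay between 0.962 and 1.05. Foxp2 has 20 annotated transcripts, the most of the 10 genes.

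None of the 10 genes passed 1.5-fold between the libraries, against 2618 of the 18246 genes whose counts averaged at least 10 (14.3%). That share includes genes with fewer counts than any of the 10. With only 10 genes, a count of 0 does not set them apart from it. The log2 ratio of replicate 2 to replicate 1, on counts scaled with TMM (a factor for library composition), was above 0 for 2 genes (Fezf2 and Hs3st4) and below 0 for 8. The median absolute log2 ratio was 0.087, against 0.171 over all genes tested and 0.129 over the 12682 genes with at least the counts of Nxph4. The largest was that of Nxph4, −0.21 (95% counting interval −0.66 to 0.21), the gene with the fewest counts.

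Tbr1, at −0.15 (95% counting interval −0.22 to −0.09), was the only one of the 10 whose interval did not include 0. Taken between the gene-table TPM values, the log2 ratio of Tbr1 was −0.06. The intervals cover counting error only and not the variation between animals. For Foxp2 the log2 ratio of the scaled counts was −0.16 (95% counting interval −0.37 to 0.04), while that of its TPM was 0.06. Bcl11b also changed sign, with −0.01 in scaled counts and 0.06 in TPM. Among the count ratios, those of Bcl11b (−0.01), Ccn2 (−0.01), Hs3st4 (0.02) and Etv1 (−0.04) were nearest to 0.

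**Figure D2:**
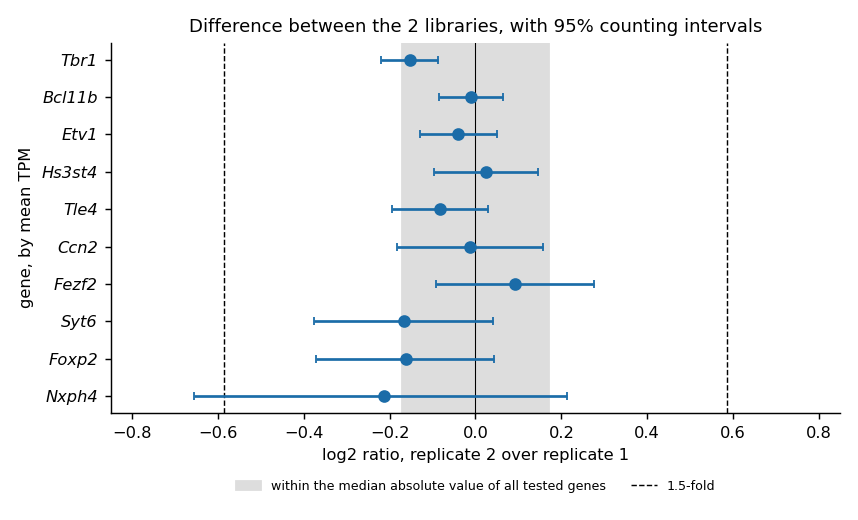
Log2 ratio of replicate 2 to replicate 1 for each gene, with 95% counting intervals. Dashed lines mark 1.5-fold, and the grey band spans the median absolute ratio of all tested genes (0.171) on either side of 0. All 10 points lie within the dashed lines, and Nxph4 alone has an interval that crosses one of them.

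The 10 genes have 60 annotated transcripts, and 8 of the genes have more than 1. In 6 of these 8, the same transcript led in both libraries and in both kinds of transcript table. The exceptions were Foxp2, whose leader differed between the tables, and Syt6, whose leader differed between the libraries as well. Shares below are shares of a gene's summed transcript TPM, estimated by the authors' quantification and not from reads across splice junctions.

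In estimated TPM, Bcl11b was split nearly evenly between its transcripts with and without the 216-base exon. Bcl11b-201, which holds it, had 56.7% in replicate 1 and 54.3% in replicate 2 in the alignment-based tables (55.5 ± 1.77%) and 53.9% and 52.2% in the alignment-free tables. Bcl11b-203, which lacks it, had 43.3% and 45.7% in the alignment-based tables. In counts Bcl11b-201 took 79.0% and 77.3%, since it is annotated with 8111 bases and Bcl11b-203 with 2888. Most of that difference in length lies outside the exon shown above, so these shares are not a measure of the exon alone.

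Etv1-201, with the 69-base exon, led with 41.5% and 46.8% (44.1 ± 3.79%) in the alignment-based tables and 34.6% and 36.0% in the alignment-free tables. Etv1-203, without it, had 23.2% and 21.1% in the alignment-based tables but 7.21% and 7.89% in the alignment-free tables. Summed over the 9 transcripts that span the exon, those that hold it had 76.3 ± 1.27% in the alignment-based and 90.6 ± 1.48% in the alignment-free tables. The form with the exon was the larger in all 4 tables, and the size of its share depended on the table. The 3 transcripts that start 3.43 kb downstream, led by Etv1-202 (15.6% and 14.7% in the alignment-based tables), had 18.0 ± 0.190% in the alignment-based and 21.3 ± 0.281% in the alignment-free tables. Some shares differed widely between the libraries in the alignment-free tables. Etv1-211 had 21.3% in replicate 1 and 6.97% in replicate 2, and Etv1-208 had 5.72% and 23.1%.

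Tle4-201 held 98.0% and 96.0% of the Tle4 TPM in the alignment-based tables and 98.1% and 95.7% in the alignment-free tables. Tle4-202, which differs in the microexon shown above, was listed at 0 in all 4 tables. The rest belonged to a retained-intron transcript. Tle4 was thus nearly a single form in this tissue's tables.

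Foxp2 transcripts start at sites far apart, with 284 kb between the 5′ ends of Foxp2-201 and Foxp2-207, which have the same coding exons. Foxp2-207, from the upstream start, led in the alignment-based tables with 44.0% and 39.2% (41.6 ± 3.35%), where Foxp2-201 had 24.6% and 21.3%. In the alignment-free tables Foxp2-201 led with 35.8% and 37.9%, and Foxp2-207 had 20.9% and 15.3%. All 6 transcripts with an upstream start together had 57.0 ± 3.64% in the alignment-based and 42.5 ± 0.777% in the alignment-free tables. Both starts had a share in every table, and which one led depended on the kind of table. The 9 Foxp2 transcripts that are not classed as protein-coding had 23.8 ± 2.90% in the alignment-based and 29.8 ± 2.96% in the alignment-free tables, where Foxp2-220 alone had 12.4% and 19.2%.

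Fezf2-201 led with 70.4% and 75.1% (72.7 ± 3.32%) in the alignment-based tables and 66.3% and 74.7% in the alignment-free tables. Fezf2-203, which has the same coding exons and a 5′ end 0.115 kb away, had 24.0% and 19.1% in the alignment-based tables. Fezf2-202, with a shorter coding part (1119 bases against 1365 in Fezf2-201), had 5.59% and 5.87% there and 12.8% and 12.7% in the alignment-free tables. Most Fezf2 RNA in these estimates thus carried the longer coding part.

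Tbr1-201 held 96.5% and 92.5% of the Tbr1 TPM in the alignment-based tables but 58.1% and 58.5% in the alignment-free tables. The difference lay in Tbr1-203, a processed transcript with no coding part, which had 0% and 6.19% in the alignment-based tables and 40.9% and 40.8% in the alignment-free tables. It has 796 bases, of which 234 lie outside Tbr1-201. In counts it took 8.09% and 8.04% in the alignment-free tables, so its TPM there rested on 393 and 275 estimated counts. By itself Tbr1-201 reached 71.0 TPM in replicate 1 and 66.4 in replicate 2 without alignment, and 50.2 and 46.2 TPM with it.

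Syt6 gave no stable leader. In the alignment-based tables Syt6-202 led in replicate 1 with 24.8% and Syt6-206 in replicate 2 with 40.9%. In the alignment-free tables Syt6-209 led in replicate 1 with 28.2% and Syt6-206 in replicate 2 with 35.1%. Syt6-202, at 20.3% in replicate 1, was listed at 0 in replicate 2 in the alignment-free tables. The sum over the 3 transcripts classed as targets of nonsense-mediated decay, Syt6-206 among them, was 43.7% in replicate 1 and 47.5% in replicate 2 in the alignment-based tables, and 38.7% and 50.3% in the alignment-free tables. Syt6 had 469 and 321 counts for 9 transcripts.

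Of the layer 6b genes, Ccn2-201 held 91.6% and 95.9% of the Ccn2 TPM in the alignment-based tables and 95.8% and 96.4% in the alignment-free tables. Hs3st4 and Nxph4 have 1 annotated transcript each. Their levels therefore involve no division of reads among isoforms.

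**Figure D3:**
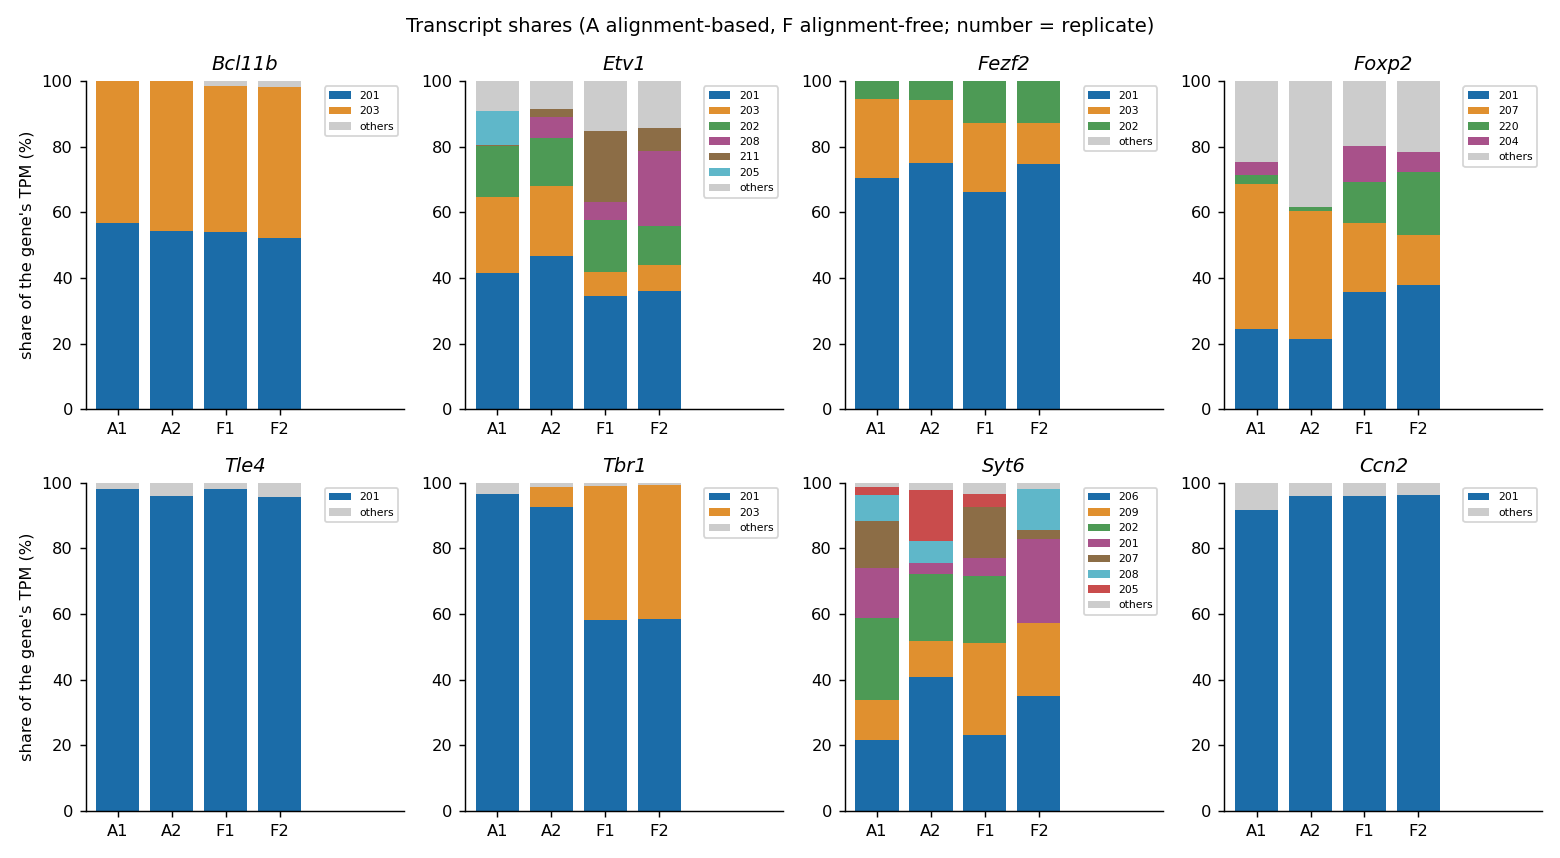
Share of each gene's transcript TPM (%) in the alignment-based (A) and alignment-free (F) tables of replicates 1 and 2, for the 8 genes with more than 1 transcript. Colours are transcripts that reached 10% in any table, named by the end of their number, and grey is the rest. Bcl11b, Fezf2, Tle4 and Ccn2 look alike in all 4 bars, and Tbr1 and Foxp2 differ between A and F. Etv1 differs between A and F and between the replicates in F, and Syt6 differs in every bar.

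Each of the 10 genes was read beside a list of relatives, which does not always hold the whole family (for Syt6 only Syt3, Syt9 and Syt10). In 3 of the 10 lists the gene was the highest. Of the 31 listed relatives, 21 reached 1 TPM in both libraries. Tbr1 and Fezf2 were nearly alone in theirs: Tbx21 and Eomes, the nearest T-box relatives, stood at 0.070 and 0.020 TPM, and Fezf1 at 0.055 TPM. Those values rest on 0 to 5 counts per library. Hs3st4 (18.5 ± 0.587 TPM) and Hs3st2 (18.3 ± 0.276 TPM), another neuronal sulfotransferase of its family, did not differ beyond their spread. Of the 6 Hs3st genes with enough counts for a ratio, Hs3st3b1 passed 1.5-fold between the libraries (0.670 TPM, log2 ratio −0.59, from 87.2 and 43.8 counts partly shared with other genes).

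In the other 7 lists a relative was higher. Bcl11a, the paralogue of Bcl11b found in upper as well as lower layers, stood at 42.2 ± 3.14 TPM, 1.60 times Bcl11b. Etv5, an ETS factor of the same group, stood at 39.2 ± 1.46 TPM, 1.55 times Etv1. Foxp1, which shares the glutamine repeat and marks several cortical layers and the striatum, stood at 57.8 ± 1.26 TPM, 13.4 times Foxp2. Foxp4 lay between them at 19.9 ± 0.750 TPM.

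Tle5 (Aes in the tables), a short family member without the WD repeats of the others, stood at 292 ± 10.1 TPM, 18.9 times Tle4. Among the full-length corepressors, Tle3 (25.9 ± 3.77 TPM), Tle2 (21.6 ± 4.93 TPM) and Tle1 (20.4 ± 1.42 TPM) were also above Tle4. Of the listed synaptotagmins, Syt3 was the highest at 26.5 ± 2.40 TPM, 4.18 times Syt6. Nxph1 (18.1 ± 0.240 TPM) and Nxph3 (9.07 ± 1.29 TPM) exceeded Nxph4, and Ccn3 (46.4 ± 4.64 TPM) exceeded Ccn2.

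**Figure D4:**
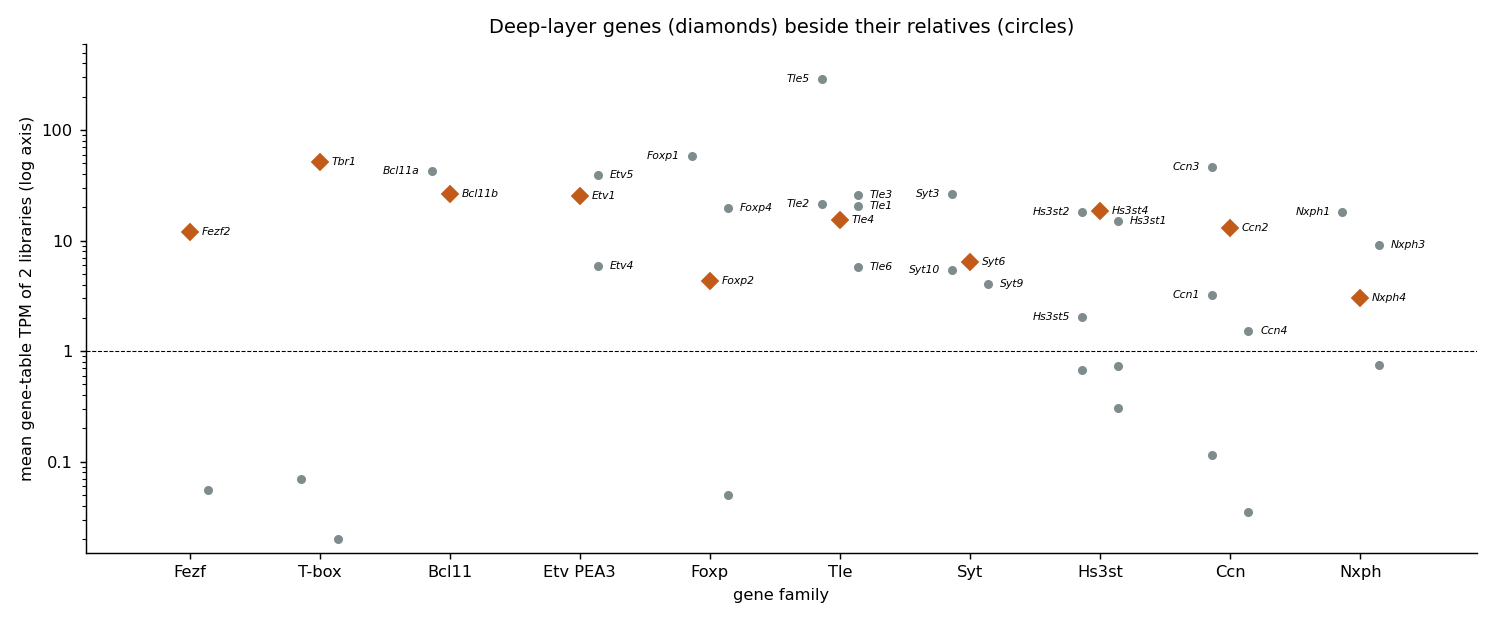
Mean gene-table TPM of the 2 libraries (log axis) for each of the 10 genes (diamonds) and its listed relatives (circles), by family, with the dashed line at 1 TPM. Tbr1 and Fezf2 stand far above their relatives, Hs3st4 stands beside Hs3st2, and Foxp2 and Tle4 lie well below Foxp1 and Tle5.

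Other genes of the same layers were read from lists to place the 10 genes. Of 12 further layer 5 genes, 11 reached 1 TPM in both libraries, with medians of 13.8 and 14.4 TPM, close to those of the 10 genes. Lypd1 (31.6 ± 1.05 TPM) and Crym (26.4 ± 1.29 TPM) led this list at about the level of Bcl11b and Etv1, and Slc17a8 missed the threshold at 0.995 TPM. None of the 12 passed 1.5-fold between the libraries.

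Of 12 further layer 6 and 6b genes, 11 reached 1 TPM in both libraries, with medians of 4.09 and 3.77 TPM. Lmo3 (65.2 ± 2.70 TPM) and Rprm (30.1 ± 1.51 TPM), a marker of corticothalamic neurons, led this list. Cplx3, a complexin of layer 6b, stood at 5.34 ± 0.311 TPM, between Ccn2 and Nxph4, and Car3 missed the threshold at 0.340 TPM. Nr4a2 (Nurr1), a nuclear receptor of layer 6b and the claustrum that is also induced by activity, was the only one of the 12 past 1.5-fold in scaled counts, with 16.4 TPM in replicate 1 and 28.4 TPM in replicate 2 (log2 ratio 0.76, 95% counting interval 0.65 to 0.87). Thsd7b came next, just under 1.5-fold in counts (log2 ratio 0.52, 95% counting interval 0.24 to 0.81), with 1.62 TPM in replicate 1 and 3.85 in replicate 2. The count ratios of Ccn2 and Nxph4, the layer 6b genes described above, were −0.01 and −0.21.

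All 10 upper-layer genes reached 1 TPM, with medians of 32.3 and 31.0 TPM, more than 2 times those of the deep-layer genes. Rasgrf2 (106 ± 1.15 TPM) and Cux2 (97.1 ± 10.5 TPM) led them. Tbr1 alone of the 10 genes lay above the upper-layer medians, as did Lmo3 of the further layer 6 genes. Lists of different genes were compared here by level alone, without a test, and a level is not a count of cells.

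**Figure D5:**
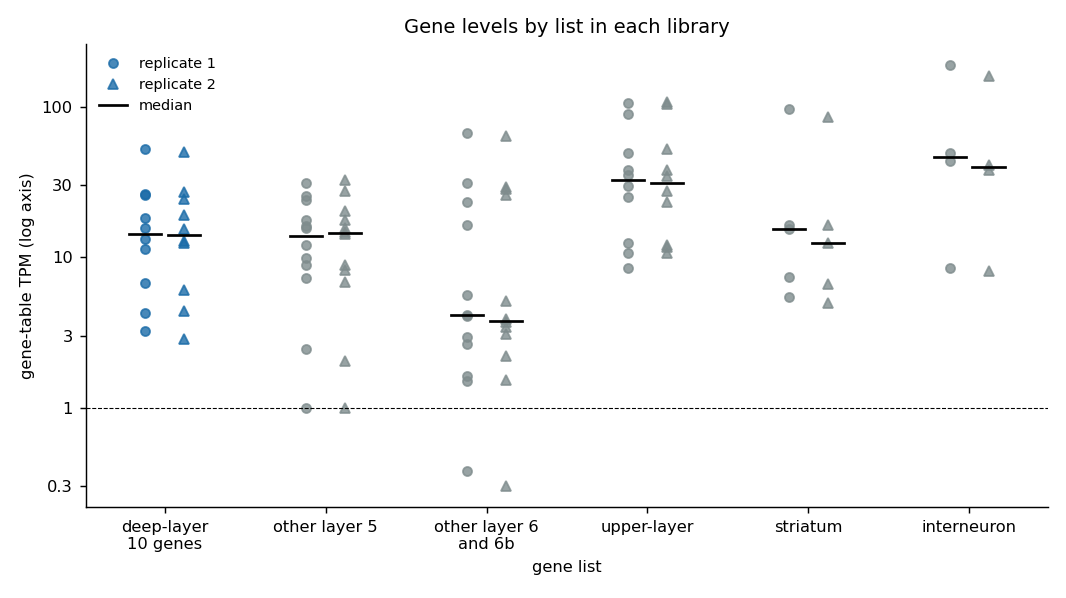
Gene-table TPM (log axis) of each gene in replicate 1 (circles) and replicate 2 (triangles) by list, with black bars at the list medians and the dashed line at 1 TPM. The deep-layer genes and the other layer 5 genes have medians near 14 TPM, below the upper-layer medians of 32.3 and 31.0 TPM.

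Marker lists of projection neurons and of other brain regions were also read. Slc17a7, which loads glutamate into synaptic vesicles of cortical neurons, stood at 552 ± 7.70 TPM, and Camk2a, a synaptic kinase, at 1148 ± 55.8 TPM. Neurod2 (31.8 ± 0.856 TPM) and Neurod6 (26.0 ± 2.94 TPM), the rest of the projection neuron list, were much lower. Of the 3 hippocampus genes, Zbtb20 (21.7 ± 3.62 TPM) and Prox1 (3.23 ± 0.537 TPM) reached 1 TPM, and Dsp of the dentate gyrus stood at 0.060 TPM (16 and 4 counts, log2 ratio −1.29). All 3 thalamus genes reached it, led by Prkcd (5.05 ± 0.247 TPM) and Tcf7l2 (3.33 ± 0.205 TPM), as did all 3 claustrum genes, led by Gng2 (86.5 ± 0.509 TPM) and Nr4a2. A level in tissue RNA does not show which region or cells the transcripts came from. The part of these regions in the levels of the 10 genes was not tested.

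Several of the 10 genes are also used outside the deep layers. Bcl11b and Foxp2 mark striatal projection neurons, and all 5 striatum genes reached 1 TPM, summing to 141 TPM in replicate 1 and 125 TPM in replicate 2. Their highest were Ppp1r1b (90.4 ± 8.12 TPM), which cortical neurons express too, and Rgs9 (15.8 ± 0.778 TPM), while Drd1 stood at 14.4 ± 2.83 TPM and Drd2 at 5.18 ± 0.368 TPM. Bcl11b and Etv1 also occur in interneurons, and all 4 interneuron genes reached 1 TPM, summing to 290 and 246 TPM, with Gad1 (174 ± 20.7 TPM) and Gad2 (45.1 ± 6.06 TPM), the enzymes that make GABA, the highest. The part of striatal tissue or interneurons in the levels of Bcl11b, Foxp2 and Etv1 was not tested.

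Ccn2 is expressed by vascular and meningeal cells as well. All 6 genes of vessels and meninges reached 1 TPM, summing to 59.0 and 52.3 TPM, and none was at 0. Flt1, of endothelial cells, stood at 15.3 ± 0.325 TPM. Cldn5, of the same cells, was lower in replicate 2 (22.1 TPM in replicate 1 and 14.2 TPM in replicate 2, log2 ratio −0.68). The rest of the list, Flt1, Dcn, Col1a2, Acta2 and Col1a1, had log2 ratios of −0.10, 0.29, −0.13, −0.37 and −0.02. That of Ccn2 was −0.01. Ccn1, a close relative of Ccn2 with which it shares YAP-dependent induction, had 2.26 and 4.23 TPM (log2 ratio 0.85). Of the 6 listed YAP and TGF-beta target genes, 4 reached 1 TPM, led by Amotl2 (8.66 ± 0.106 TPM), and Ankrd1 was listed at 0. The part of vessels and meninges in the Ccn2 level was not tested.

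Genes that overlap the 10 genes were assigned few counts. Gm15270, on the strand opposite Ccn2, had 10 and 7 expected counts, Gm27040, opposite Hs3st4, had 7 and 5, and Atg4a-ps, opposite Syt6, had 8.68 and 22.8. The strand setting of the counting is not given in the sources used here, so reads of a gene and of its opposite partner may not have been told apart. The partners' counts were small against those of Ccn2, Hs3st4 and Syt6, with 22.8 against 321 for Syt6 in replicate 2. They cannot show how many reads of the opposite strand a gene's own count holds.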

How the data were processed

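Total RNA-seq of 2 libraries was analysed from the deposited tables. The accompanying text gives mm10 and GENCODE M21 as the reference, and says that the gene table and a first transcript table were made from a transcriptome alignment and a second transcript table from the reads with an index. The sources used here name no aligner or quantifier. The alignment-based values are expected counts, TPM and posterior mean TPM, and the alignment-free values are estimated counts with TPM (per the file headers, as deposited).

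Expected counts were rounded, genes averaging at least 10 kept (18246) and scaled with edgeR 4.0.16 (TMM). Log2 ratios were taken between log2 CPM values (prior count 2). The 95% interval of a ratio is exact (Clopper-Pearson, conditional on the sum) and covers counting error only, as reads carry no molecular identifiers. A count of 0 allows up to 3 counts, 0.0927 CPM in replicate 1 and 0.121 in replicate 2. With 1 group and no contrast, no test was made. Depth was 32504959 and 24899781 expected counts over all entries. The ratio step was tested on simulated data. Reads were placed on the C57BL/6J reference, and the effect of CAST/EiJ variants on the levels was not analysed here.

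The members, the lists and the relatives were chosen with earlier results of these data known. Named were the 10 genes, the 2 to 4 highest of each other list, the lowest where a count speaks of it, any past 1.5-fold, and transcripts that led or reached 10% in both libraries of a table. Relatives at 1 TPM could be named. The relatives Tbx21, Eomes and Fezf1, below 1 TPM, were named after their values were seen. So were Cplx3, Thsd7b, Drd1, Drd2, Acta2, Col1a1, Ccn1 as a Ccn2 relative and the overlapping genes. A gene of the striatum list is not reported here. Alternatives covered the table, thresholds, normalization (DESeq2 1.42.0 size factors), filter, prior count and each library alone.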

Additional observations from a re-analysis of the deposited data

How the results depend on the processing

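All 10 genes reached 1 TPM in both libraries at thresholds of 0.5, 1 and 2 TPM, in every kind of TPM and in each library alone (10 to 10 genes). None passed 1.5-fold under any scaling, filter, prior count or table tried; the ratio farthest from 0 was that of Nxph4 in alignment-free counts, −0.32 on the log2 scale. The genes' median of 14.2 TPM was 21.8 in alignment-free TPM, 14.0 in posterior mean TPM and 32.2 in TPM rescaled to nuclear protein-coding genes, which hold 44.05% and 44.18% of the deposited TPM, and 14.1 to 14.3 with either library left out. The number of genes with 1 leading transcript was 7 in either kind of table across libraries, and 6 to 7 between the tables within a library. The median ratio of alignment-free to gene-table TPM was 1.62 (1.60 to 1.64 in each library alone). Of the 67 genes in the related lists, 62 reached 1 TPM (62 to 63 under the alternatives). In alignment-free TPM, an alternative chosen after seeing the data, 2 of the 10 genes led their listed relatives, against 3 in gene-table TPM. Hs3st4 no longer led, with 28.05 and 29.01 TPM against 31.75 and 27.84 for Hs3st1. No paired analysis was possible because there is 1 group. Nxph4 had the fewest counts (115 and 76) and the widest counting interval of its ratio.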
